A study of Mus musculus with 8 samples.

Results

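The 9 genes described here, Adar, Eif2ak2, Ifih1, Ddx58, Mavs, Stat2, Irf9, Irf1 and Isg15, carry the response of a mouse cell to double-stranded RNA and to interferon. They were picked by symbol, and all 9 were found among the 37736 genes of a table of newly made RNA in mouse embryonic stem cells. The cells were a male, feeder-free line from 129 mice kept in serum and LIF, and every group, the controls included, carried the genotype Ythdc1_cKO, that is, conditional alleles of the nuclear m6A reader Ythdc1. They received 4-hydroxytamoxifen (4OHT, 1 μg/ml) or its solvent DMSO over 4 days, then the elongation blocker DRB (100 μM, 3 h) in all groups. After the wash, RNA was tagged with 4-thiouridine (1 mM) during 0 or 8 min and purified. This gave 4 groups of 2 libraries: DMSO at 0 min, 4OHT at 0 min, DMSO at 8 min and 4OHT at 8 min. The labels name neither the driver of the recombinase nor the deleted part of Ythdc1. By the sample titles, line number 1 was used at 0 min and line number 2 at 8 min. The column names instead pair each time with numbers 1 and 2, so a change with labelling time and a difference between lines cannot be told apart. Libraries are named here by their column number. Nothing says that the libraries of a group came from separate cultures, so p-values measure the spread between these libraries, which may be technical.

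Double-stranded RNA in the cytoplasm is read by the helicases Ddx58 (RIG-I) and Ifih1 (MDA5), which signal through the mitochondrial adaptor Mavs to kinases and IRF transcription factors that switch on interferon genes. Eif2ak2 (PKR) binds the same RNA and stops translation by phosphorylating eIF2, while Adar edits adenosine to inosine in double-stranded RNA and so keeps the cell's own transcripts from being sensed. Secreted interferon acts through JAK kinases and a complex that holds Stat2 and Irf9 and binds interferon-stimulated response elements, and Isg15, a ubiquitin-like protein, is among the most strongly induced targets. Mouse embryonic stem cells are known for a weak interferon response, and Ythdc1 in these cells is known for its part in silencing retrotransposons, a possible source of such RNA.

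Matches to response elements of interferon signalling were found around the transcription starts of some of these genes, which is why the following stretches are shown. RefSeq (GRCm38.p6) gave 13 windows for the 9 genes, each reaching from 250 bases before a transcription start to base 50 of the transcript. The core of the interferon-stimulated response element, taken as GAAA, any 2 bases and GAAA again, and searched on both strands (TTTC, any 2 bases and TTTC on the other), was in the windows of 5 of the 9 genes, against 3.99% of all 27025 genes (3.44% of all 32851 windows of this length). The gamma-activated sequence TTCNNNGAA, which reads alike on both strands, was in those of 3 genes, against 9.55% of genes (8.30% of windows). Capitals mark the matches, each line runs 5′ to 3′ on the gene's strand, and positions count from the start, with −1 the base before it. For Isg15 (chr4:156200819-156200918, minus strand, bases −100 to −1), 3 overlapping matches span −78 to −57. For Irf1 (chr11:53769914-53770013, plus strand, bases −100 to −1), the match lies at −90 to −82. The other lines hold 30 bases each: Stat2 (chr10:128270266-128270295, plus strand, match at −222 to −213), Ddx58 (chr4:40239804-40239833, minus strand, match at 3 to 12), Eif2ak2 (chr17:78882535-78882564, minus strand, match at 19 to 28), Ifih1 (chr2:62646206-62646235, minus strand, match at 33 to 42), and Adar at the most downstream of its 3 windows (chr3:89730729-89730758, plus strand, gamma-activated sequence at 23 to 31).
Isg15: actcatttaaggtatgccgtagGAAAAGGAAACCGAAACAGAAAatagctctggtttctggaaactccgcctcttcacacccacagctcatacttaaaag
Irf1: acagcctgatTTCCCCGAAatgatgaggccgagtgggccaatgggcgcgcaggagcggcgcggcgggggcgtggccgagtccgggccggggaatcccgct
Stat2: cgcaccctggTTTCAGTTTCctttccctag
Ddx58: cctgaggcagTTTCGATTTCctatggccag
Eif2ak2: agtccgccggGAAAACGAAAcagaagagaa
Ifih1: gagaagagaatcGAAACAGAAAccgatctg
Adar: ggggaagccttTTCAAGGAAacgaaagtga
Eif2ak2 also held the gamma-activated sequence at −178 to −170. No match to either was found in the windows of Mavs and Irf9, which says only that these letters are not there. A match describes the sequence and says nothing of binding.

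The values are deposited normalised read counts, from which whole reads can be recovered because each library has a single divisor. Libraries held 46340613 to 61409073 reads at 0 min and 93062961 to 133915996 at 8 min. Between 70.7% and 85.8% of entries with over 20 reads had an even number of reads, so reads are not independent molecules and counting error understates the spread. The targeted gene, Ythdc1, read 1409 and 2708 under DMSO and 2696 and 5168 under 4OHT at 8 min (scaled log2 fold change −0.53, adjusted p = 0.00252), and 133 and 185 against 129 and 412 at 0 min (adjusted p = 1). Reads over a whole gene do not check a deletion whose extent is unknown. The stem cell markers were read in every library (10 of 10 above 0). Their summed level in RPM of gene reads was 1864 to 1950 at 0 min, 1277 to 1449 with DMSO at 8 min and 1191 to 1196 with 4OHT at 8 min. Of 12 blood and macrophage markers, 4 to 6 had a deposited value under 1 in the 0 min libraries and 1 to 5 in those of 8 min. Such a value of 1 stands for 29.5 reads in DMSO 8 min number 1 and 8.1 in 4OHT 8 min number 2. These counts therefore depend on the divisor too. In RPM of gene reads, these 12 markers summed to 13.4 to 19.2 at 0 min. At 8 min the sum was 59.5 to 65.7 with DMSO and 39.5 to 41.5 with 4OHT. Most of the 8 min sum was Cd68. In deposited values it gave 125 of 170 and 192 of 253 with DMSO, and 171 of 285 and 286 of 475 with 4OHT. The sum thus follows that gene more than the set. Fibroblast markers summed to 22.0 to 40.2 RPM over all libraries. The part of any such cells in the results was not tested. Fewer cells and less RNA per cell cannot be told apart in these bulk samples.

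The deposited scale carried a shift of the whole transcriptome: at 8 min the median of the 20646 genes tested lay 1.43 higher on the log2 scale with 4OHT. It lay 0.12 higher when the libraries were scaled by their spike-in RNA. In each 8 min group the 2 libraries also differed in overall level (median-ratio factors 0.48 and 0.76 with DMSO, 1.32 and 2.10 with 4OHT). Results at 8 min are therefore given on the deposited scale and, as the main reading of how these genes differ from other genes, after median-ratio scaling of the 4 libraries of 8 min (the scaled fit, median of all genes −0.00086). Both fits used limma on log2(value + 1), which understates changes of low genes, with Benjamini-Hochberg adjustment over all genes tested at a threshold of 0.05.

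Of the 9 genes, 7 reached a value of 10 in at least 2 libraries and were tested. Ifih1 and Isg15 did not. In the scaled fit, 4 of the 7 passed: Adar and Irf1 were higher with 4OHT and Ddx58 and Eif2ak2 were lower, while Mavs, Stat2 and Irf9 did not pass. Over all genes 35.3% passed in either direction, 18.6% higher and 16.7% lower, so calls were common among genes of any kind and 4 of 7 carries little by its count. The same directions were called by edgeR's quasi-likelihood test and by DESeq2 on the recovered reads of the 4 libraries. The called genes did not share 1 direction.

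**Figure D1:**
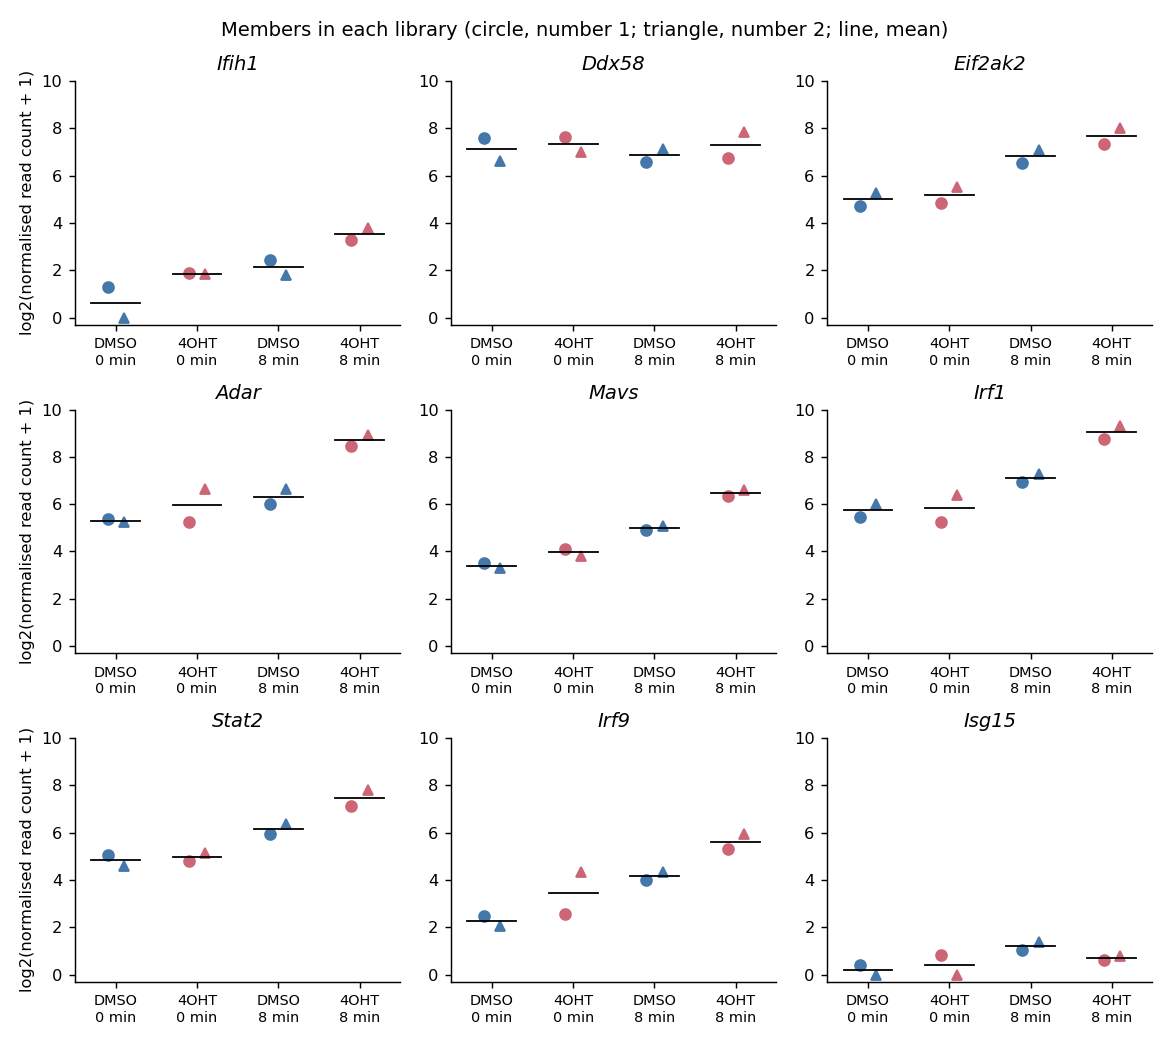
Normalised read counts of the 9 genes in the 8 libraries, as log2(value + 1), by group on the horizontal axis, with a circle for library number 1, a triangle for number 2 and a line at the mean. Adar and Irf1 stand highest with 4OHT at 8 min, Ddx58 is level across groups, and Ifih1 and Isg15 lie near the bottom of the scale.

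Among the sensors, Ddx58 (gene ID 230073; chr4:40203777-40239825) was the gene that stood apart. Its normalised read counts were 193 and 98.4 under DMSO and 199 and 128 under 4OHT at 0 min, and 95.6 and 140.1 under DMSO and 106 and 229 under 4OHT at 8 min. All 4 groups overlapped. On the deposited scale the 8 min difference of 0.43 ± 0.58 (log2, SE) did not pass (adjusted p = 0.487), though most genes lay higher there. After scaling, Ddx58 read 199 and 185 under DMSO and 80.4 and 109 under 4OHT at 8 min, which did not overlap, and fell by 1.03 on the log2 scale (SE 0.15, adjusted p = 1.13e-05), at percentile 4.33 of all genes. From 0 to 8 min its deposited value changed by −0.25 with DMSO (adjusted p = 0.753) and −0.035 with 4OHT (adjusted p = 0.958), beside medians of 1.25 and 2.49 over all genes. Its 8 min values thus lay at the level of libraries with no labelling time. How much of that RNA was made within 8 min was not tested.

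Ifih1 (gene ID 71586; chr2:62595618-62646255), the sensor of long double-stranded RNA, was barely read. It had 34 and 0 reads under DMSO and 63 and 32 under 4OHT at 0 min, and 132 and 38 under DMSO and 100 and 104 under 4OHT at 8 min. A count of 0 allows up to 3 reads, or 0.0647 RPM in that library, for counting error only. Its deposited values at 8 min were 4.48 and 2.54 under DMSO and 8.85 and 12.8 under 4OHT. After scaling they were 9.32 and 3.36 against 6.69 and 6.12, so that the 4OHT libraries lay between those with DMSO. Without the filter on low values its scaled difference was 0.17 (adjusted p = 0.88).

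Eif2ak2 (gene ID 19106; chr17:78850504-78882572), the kinase PKR, read 91.7 and 136 under DMSO and 158.6 and 254 under 4OHT at 8 min, against 25.3 and 37.8 under DMSO and 28.1 and 44.3 under 4OHT at 0 min. The 4OHT libraries were the higher ones at 8 min, but by less than most genes: 0.84 ± 0.59 (log2, SE; adjusted p = 0.178), which did not pass. Scaled, the order turned. It read 191 and 180.0 under DMSO and 119.8 and 121 under 4OHT, a fall of 0.62 on the log2 scale (SE 0.13, adjusted p = 0.000816). The annotation places the pseudogene Gm6548 within Eif2ak2 and the gene Gm26637 across its start, and the strand counted is not stated, so reads may be split between them. Gm26637 fell by 1.15 in the scaled fit (adjusted p = 3.62e-06), and Gm6548 had a value of 0.03 (adjusted p = 0.904). Their part in the Eif2ak2 value was not tested.

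Adar (gene ID 56417; chr3:89714469-89753455), the editing enzyme that marks self RNA, moved the other way. It read 40.6 and 36.7 under DMSO and 37.4 and 100.1 under 4OHT at 0 min, then 62.9 and 97.7 under DMSO and 351 and 491 under 4OHT at 8 min. At 8 min both 4OHT libraries were far above both DMSO libraries. At 0 min the groups overlapped, with 1 high 4OHT library. The 8 min rise was 2.39 ± 0.58 on the deposited scale (log2, SE; adjusted p = 0.00128). In the scaled fit Adar rose from 130.2 ± 1.19 to 249.5 ± 22.6 (SD, n = 2), a log2 fold change of 0.93 ± 0.13 (limma adjusted p = 5.92e-06), at percentile 94.1 of all genes. Across the 12 alternatives to that fit its log2 fold change ran from 0.84 to 1.02. The reads do not separate the interferon-inducible long form of Adar from the constitutive short form. The neighbour Chrnb2, which overlaps the last bases of Adar, rose too (0.92, adjusted p = 0.00514), at 46.6 and 68.7 with 4OHT. The 2 genes share few bases in the annotation, but the reads of each cannot be set apart without strand.

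**Figure D2:**
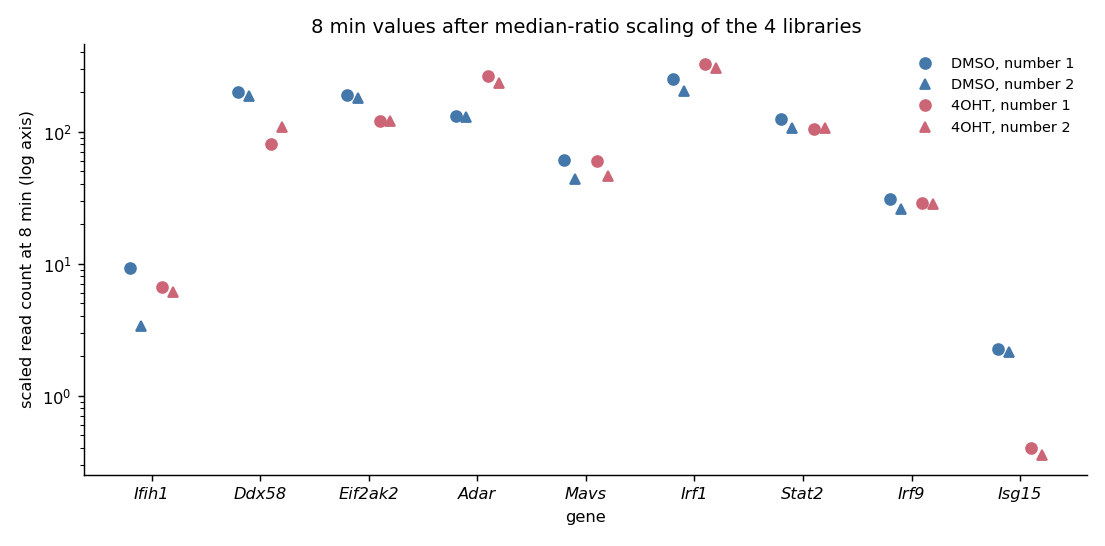
Read counts of the 9 genes at 8 min after median-ratio scaling of the 4 libraries, on a log axis, with DMSO in blue and 4OHT in red, a circle for number 1 and a triangle for number 2. The 4OHT points lie above the DMSO points for Adar and Irf1 and below them for Ddx58, Eif2ak2, Isg15 and, narrowly, Stat2, and the colours mix for Ifih1, Mavs and Irf9.

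Downstream of the helicases, the adaptor Mavs (gene ID 228607; chr2:131234063-131248025) followed the bulk of genes. At 0 min it read 10.3 and 8.81 under DMSO and 16.3 and 13.1 under 4OHT. At 8 min it read 29.4 and 32.8 under DMSO and 79.6 and 97.2 under 4OHT. The rise of 1.47 ± 0.62 on the deposited scale (adjusted p = 0.035) lay 0.039 above the median of all genes. Scaled values were 61.1 and 43.4 against 60.1 and 46.3, with a difference of 0.033 ± 0.20 (adjusted p = 0.923). These overlap almost fully.

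Irf1 (gene ID 16362; chr11:53770014-53778374), a transcription factor induced by interferon gamma and by viral RNA, was the most strongly read of the 9 per length of gene. It read 43.0 and 63.6 under DMSO and 36.6 and 83.7 under 4OHT at 0 min. At 8 min it read 120.0 and 154 under DMSO and 435 and 639 under 4OHT, where the groups stood well apart. The deposited rise was 1.95 ± 0.58 (adjusted p = 0.0068). In the scaled fit Irf1 rose from 227 ± 32.3 to 316 ± 17.1 (SD, n = 2), by 0.48 ± 0.12 (log2, SE; limma adjusted p = 0.00408). The call rested on a DMSO library: without DMSO 8 min number 2 the scaled value was 0.34 (adjusted p = 0.0573), the lone DMSO library being taken to vary like the others.

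Of the interferon signalling complex, neither Stat2 nor Irf9 differed from the bulk of genes beyond the threshold. Stat2 (gene ID 20847; chr10:128270498-128292853), which carries the transactivating part of the complex, read 60.4 and 80.6 under DMSO and 139.9 and 223 under 4OHT at 8 min, and 32.4 and 23.3 against 27.3 and 34.7 at 0 min. Its deposited rise of 1.33 ± 0.59 passed (adjusted p = 0.0448) and lay 0.11 below the median gene. Scaled, it read 126 and 107 under DMSO and 105.7 and 106 under 4OHT (−0.13 ± 0.15, adjusted p = 0.53). Irf9 (gene ID 16391; chr14:55603985-55610030), its DNA-binding partner, read 14.9 and 19.5 under DMSO and 38.2 and 59.9 under 4OHT at 8 min. The deposited rise of 1.44 ± 0.63 (adjusted p = 0.0427) became 0.020 ± 0.23 after scaling (adjusted p = 0.959). At 0 min Irf9 had 4.52 and 3.12 under DMSO and 4.99 and 19.0 under 4OHT, where 1 library carried the difference of 1.20 (adjusted p = 1).

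Isg15 (gene ID 100038882; chr4:156199424-156200818), the target gene with the stretch of 3 overlapping sequence matches shown above, was close to silent. It had 8 and 0 reads under DMSO and 18 and 0 under 4OHT at 0 min. At 8 min it had 32 and 24 reads under DMSO and 6 and 6 under 4OHT, or 0.286 and 0.258 against 0.0507 and 0.0448 RPM. It was the member of the 9 whose deposited values at 8 min were lower with 4OHT in both libraries, 0.531 and 0.741 against 1.09 and 1.60. It did not reach the filter. Without the filter the scaled difference was −1.20 (adjusted p = 0.0613), and no gene passed in that fit.

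**Figure D3:**
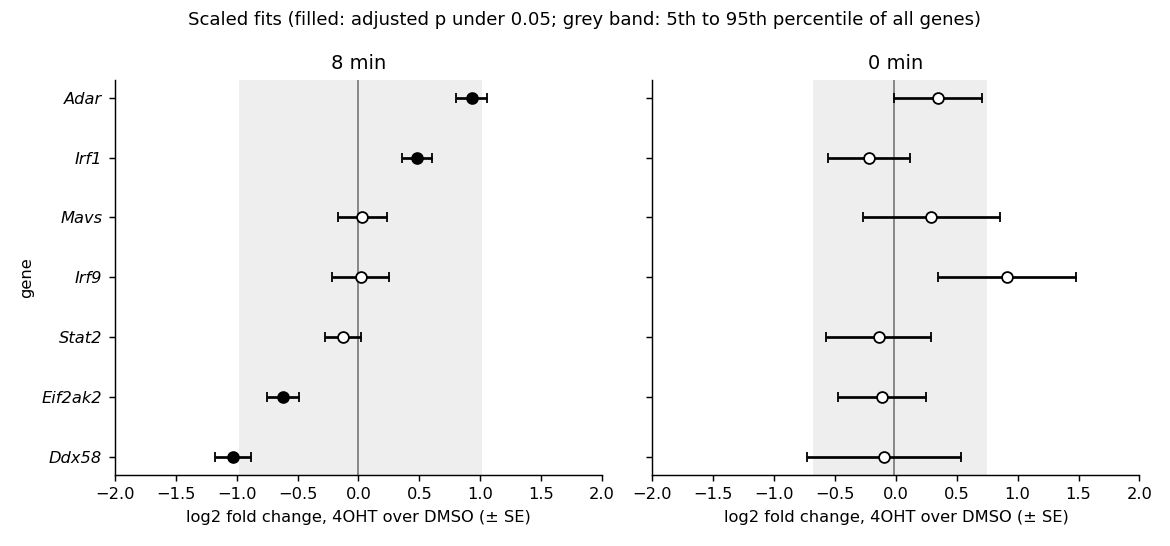
Log2 fold change of 4OHT over DMSO with its standard error for the 7 genes tested, in the scaled fits of 8 min and 0 min, with filled points for adjusted p under 0.05, a grey band from the 5th to the 95th percentile of all genes and a line at their median. At 8 min Adar (0.93) and Irf1 (0.48) lie to the right and Eif2ak2 (−0.62) and Ddx58 (−1.03) to the left, and at 0 min no point is filled.

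On the deposited scale 5 of the 7 passed at 8 min, all higher: Adar, Irf1, Mavs, Irf9 and Stat2. The background was 58.9% of genes in either direction, 58.7% higher and 0.131% lower. Without DMSO 8 min number 1, or without 4OHT 8 min number 2, 0 of the 7 passed, and over all genes 300 and 239 were higher. The count was 2 without DMSO 8 min number 2 (Adar and Irf1; 9340 genes higher) and 3 without 4OHT 8 min number 1 (11362 genes higher). It was also 3 without either DMSO 0 min library, which enter through the shared spread (9153 genes higher without number 1 and 9209 without number 2). With the spike-in scaling 0 passed as well, with 28 genes higher and 2 lower over all genes. That fit shares its spread over all 8 libraries, whose spike-in shares varied within groups, so its lack of calls decides little. Median-ratio scaling of all 8 libraries gave 0 members, with 2 genes higher and 28 lower. The values of Adar, Irf1, Eif2ak2 and Ddx58 relative to the median gene were close on both scales, at 0.96, 0.51, −0.59 and −1.01 on the deposited scale against 0.93, 0.48, −0.62 and −1.03 in the scaled fit.

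At 0 min, with no labelling time, no member passed, and limma called 0 of all genes (0% in each direction) on either scale. At an unadjusted p under 0.05 there were 0 of the 7 members, with 493 genes higher and 55 lower on the deposited scale and 140 and 90 after scaling, and edgeR and DESeq2 called 0 genes. Without 4OHT 0 min number 1 the deposited fit called 200 genes higher and 2 lower, with no member among them. The scaled values ran from −0.22 for Irf1 to 0.91 for Irf9. The difference between the 8 and 0 min effects was largest for Irf1 (1.86 ± 0.83, adjusted p = 0.252) and Adar (1.74 ± 0.83, adjusted p = 0.268), beside a median of 1.15 over all genes, of which 0.387% passed. No member passed. Of the 7, 2 lay under an unadjusted p of 0.05, beside 3609 genes higher and 22 lower of the 20646. Without 4OHT 0 min number 2 both passed, with Irf1 at 2.45 (adjusted p = 0.0483) and Adar at 2.44 (adjusted p = 0.0497), in a fit that called 1809 genes higher in place of 80.

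Most of these genes were higher after 8 min of labelling. With DMSO, 4 of the 7 rose from 0 to 8 min on the deposited scale (48.9% of all genes called, 47% higher and 1.95% lower): Irf9 by 1.92 ± 0.63, Eif2ak2 by 1.82 ± 0.59, Mavs by 1.61 ± 0.62 and Irf1 by 1.36 ± 0.58 (adjusted p from 0.00545 to 0.0412). Stat2 (1.31, adjusted p = 0.0537), Adar (1.00, adjusted p = 0.146) and Ddx58 did not pass. With 4OHT 6 of the 7 rose (74.9% of all genes called, 74% higher and 0.828% lower), from 2.16 ± 0.63 for Irf9 to 3.23 ± 0.58 for Irf1, all but Ddx58. The DMSO count was 0 without DMSO 8 min number 2 (5806 genes higher over all) and 2 without DMSO 8 min number 1 (9043 genes). It was 1 without either DMSO 0 min library: Irf9 without number 1 (6960 genes) and Eif2ak2 without number 2 (7773 genes). After median-ratio scaling of all 8 libraries, where the split over all genes was 6413 higher and 5392 lower under DMSO and 6268 and 5634 under 4OHT, Ddx58 fell by 1.49 with DMSO (adjusted p = 0.036) and by 2.50 with 4OHT (adjusted p = 0.00385), and Irf1 rose by 0.75 with 4OHT (adjusted p = 0.0223). The other values did not pass there.

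**Figure D4:**
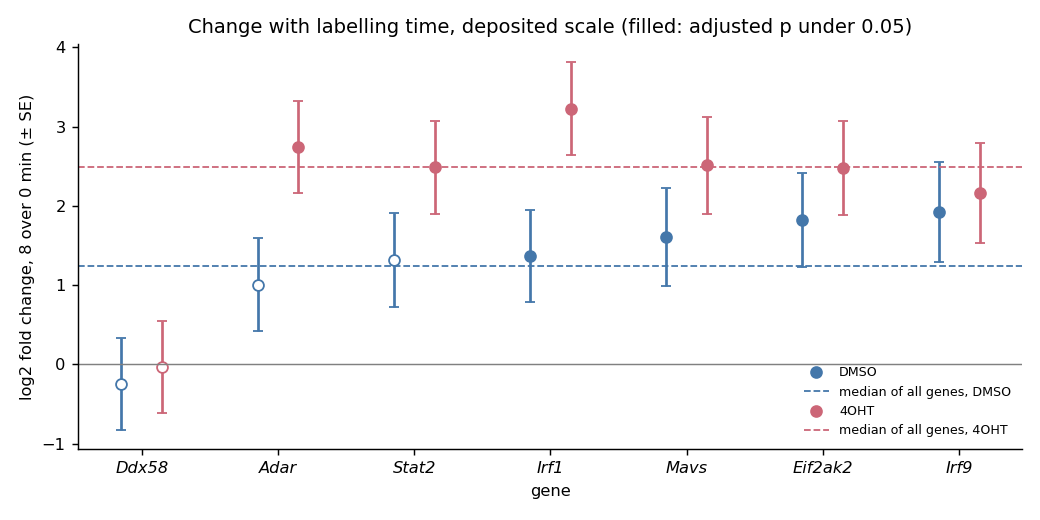
Log2 fold change of 8 over 0 min on the deposited scale with its standard error for the 7 genes tested, DMSO in blue and 4OHT in red, filled where the adjusted p was under 0.05, with dashed lines at the medians of all genes (1.25 and 2.49). Ddx58 lies near 0 in both treatments and the other 6 genes lie above 0.

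Set per kilobase of annotated gene span, the deposited level at 8 min with DMSO was highest for Irf1 (16.4 ± 2.90 per kb, SD, n = 2). Then came Eif2ak2 (3.55 ± 0.98), Ddx58 (3.27 ± 0.87), Stat2 (3.15 ± 0.64), Irf9 (2.84 ± 0.53), Mavs (2.23 ± 0.18) and Adar (2.06 ± 0.63). Libraries of neighbours in this order overlapped from Eif2ak2 to Irf9 and from Mavs to Adar, but not between Irf9 and Mavs. Isg15 (0.96 ± 0.26) and Ifih1 (0.069 ± 0.027) came last. With 4OHT at 8 min Irf1 (64.2 ± 17.3 per kb) stayed first and Adar (10.8 ± 2.53) came next, ahead of Irf9 (8.12 ± 2.53), Stat2 (8.11 ± 2.62), Eif2ak2 (6.44 ± 2.11), Mavs (6.33 ± 0.89) and Ddx58 (4.65 ± 2.396), where libraries of neighbours overlapped from Adar down to Ddx58. How much of each span was transcribed within 8 min was not tested, so this order is not given as an order of transcription. The median rise from 0 to 8 min with DMSO differed by gene length on the deposited scale. Among protein-coding genes it was highest at 10 to 30 kb (1.73) and lowest over 100 kb (0.78). The classes of under 10 kb and of 30 to 100 kb (1.35) lay in between. Gene length also moved a little with the comparison of 4OHT and DMSO. Protein-coding genes of 30 to 100 kb, the class of Adar, Ddx58 and Eif2ak2, had a median of 0.13 in the scaled fit, and those under 10 kb, the class of Irf1, Irf9 and Isg15, −0.10.

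Around the 9 genes, 6 lists covered the rest of the pathway, the members themselves left out. Over these 167 genes, 122 were tested in the scaled fit at 8 min, of which 26 were higher, 10 lower and 86 not past the threshold, with a median of 0.13. Together these 36 calls are no larger a share than the background of 35.3% of all genes in either direction. That background was 18.6% higher and 16.7% lower, and the counts of each list below stand beside the same shares. Whether a single list differed from them was not tested. Of the 122 genes, 15 reached the filter only through the 4OHT 8 min libraries, 4 of them among the 26 higher. The filter favoured a rise of such genes, so the count of higher genes and the median lean upward.

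The list of receptors and double-stranded RNA binding proteins held 30 other genes, among them Mb21d1 and Tmem173, which act in DNA sensing. Of these 30 genes, 22 were tested, Mb21d1 included. In the scaled fit 4 were higher, 0 lower and 18 did not pass, with a median of 0.051. Of the 22, 3 reached the filter only through the 4OHT 8 min libraries, and 0 of these were among the 4 higher. The filter favoured a rise of such genes, so the median leans upward. Strbp, an RNA-binding protein of spermatids, rose by 0.95 ± 0.12 (adjusted p = 1.46e-06). Dicer1, which cuts double-stranded RNA into small RNAs, rose by 0.45 ± 0.11 (adjusted p = 0.00265). Oasl2, of the oligoadenylate synthetase family, rose by 0.80 ± 0.22 (adjusted p = 0.00644), from 11.8 and 19.9 to 56.3 and 99.9 on the deposited scale. The remaining riser, Adarb1, the second adenosine deaminase (0.54, adjusted p = 0.0359), was named after its value was seen.

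Adaptors, kinases and their regulators had 27 of 29 genes tested, with a median of 0.16. Of these, 8 were higher, 1 lower and 18 not past the threshold, beside 18.6% higher and 16.7% lower over all genes. Cyld, a deubiquitinase that restrains RIG-I signalling, rose by 1.48 ± 0.14 (adjusted p = 1.99e-08), from 35.8 and 65.0 with DMSO to 298 and 474 with 4OHT. Traf3, a ubiquitin ligase downstream of Mavs, rose by 1.18 ± 0.14 (adjusted p = 1.02e-06), and Traf6, a related ligase, by 0.73 ± 0.12 (adjusted p = 4.01e-05). Tbkbp1, a binding partner of the kinase TBK1, fell by 0.88 (SE 0.30, adjusted p = 0.0267).

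For the interferon receptors and JAK-STAT genes, 18 of 19 were tested, with 4 higher, 1 lower and 13 not past the threshold, and a median of 0.38. Of the 18, 4 reached the filter only through the 4OHT 8 min libraries, and 0 of these were among the 4 higher. The filter favoured a rise of such genes, so the median of 0.38 leans upward. Socs3, a feedback inhibitor of cytokine receptors, rose by 1.24 ± 0.15 (adjusted p = 8.35e-07), from 58.8 and 65.8 to 342 and 490 on the deposited scale. Pias1, a SUMO ligase, rose by 0.91 ± 0.12 (adjusted p = 4.07e-06). Stat3, the STAT of LIF signalling, rose by 0.60 ± 0.13 (adjusted p = 0.000633). Ptpn6, a phosphatase of blood cells, fell by 1.04 (SE 0.18, adjusted p = 0.000102), beside blood and macrophage markers, of which 4 of 12 were tested with 1 higher and 2 lower: Cd68 (−0.95, adjusted p = 3.46e-06) and Adgre1 (−0.71, adjusted p = 0.0313) were lower and Laptm5 (1.14, adjusted p = 0.00154) higher. The part of such cells was not tested.

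Of 58 other interferon-stimulated genes, 44 were tested, and 9 were higher, 5 lower and 30 not past the threshold, with a median of 0.15. Of the 44, 9 reached the filter only through the 4OHT 8 min libraries, 4 of them among the 9 higher. The filter favoured a rise of such genes, so these 4 calls carry no weight. The list median includes all 9 and leans upward for the same reason. Over all genes tested, 1509 of 20646 entered in this way, 438 of them among the 3836 higher. None of the 7 members did. Nlrc5, the activator of MHC class I genes, rose by 1.36 ± 0.19 (adjusted p = 6.59e-06). Ifitm3, a membrane protein that blocks virus entry, rose by 0.79 ± 0.18 (adjusted p = 0.00146), and Pml, the scaffold of PML nuclear bodies, by 0.62 ± 0.12 (adjusted p = 0.000212). Herc6, the mouse ligase that joins Isg15 to proteins, fell by 1.33 (SE 0.27, adjusted p = 0.000441), with deposited values of 14.8 and 32.0 with DMSO against 16.1 and 32.9 with 4OHT. Ifi35, an interferon-induced leucine zipper protein, fell by 0.67 (SE 0.11, adjusted p = 8.17e-05), and Tapbp, the chaperone tapasin of MHC class I, by 0.44 (SE 0.13, adjusted p = 0.00942).

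Interferon genes other than Ifna13 gave at most 96 reads in a library. That highest count was of Ifnk, named after its values were seen. It had 77 and 50 reads under DMSO and 51 and 96 under 4OHT at 8 min. Of 21 ligands in the list, 9 had entries. Ifnb1, the first interferon made after RIG-I or MDA5 signalling, had 4 and 0 reads under DMSO and 0 and 16 under 4OHT at 0 min, and 14 and 0 under DMSO and 0 and 0 under 4OHT at 8 min. Ifna13 was the sole ligand to reach the filter. Its reads were 427 and 359 under DMSO and 410 and 547 under 4OHT at 0 min, then 142 and 80 under DMSO and 8 and 13 under 4OHT at 8 min. It fell by 2.52 in the scaled fit (SE 0.51, adjusted p = 0.000456). Alpha interferon genes are near-identical copies, so the value of each is uncertain.

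The eIF2 branch, in which PKR is 1 of 4 kinases, had 13 other genes, all tested, with 2 higher, 2 lower and 9 not past the threshold, and a median of −0.22. Eif2ak3 (PERK, the kinase of misfolded protein) rose by 0.91 ± 0.12 (adjusted p = 1.8e-06) and Eif2ak1 (the kinase of heme shortage) by 0.87 ± 0.13 (adjusted p = 1.26e-05). The remaining kinase, Eif2ak4 of amino acid shortage, named after its value was seen, had 0.14 ± 0.12 (adjusted p = 0.411), and Eif2ak2 fell as given above. The differences between the kinases were not tested. Ppp1r15a, which brings the phosphatase that reverses eIF2 phosphorylation, fell by 0.50 (SE 0.13, adjusted p = 0.0057), and the exchange factor subunit Eif2b4 by 0.65 (SE 0.15, adjusted p = 0.00202).

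**Figure D5:**
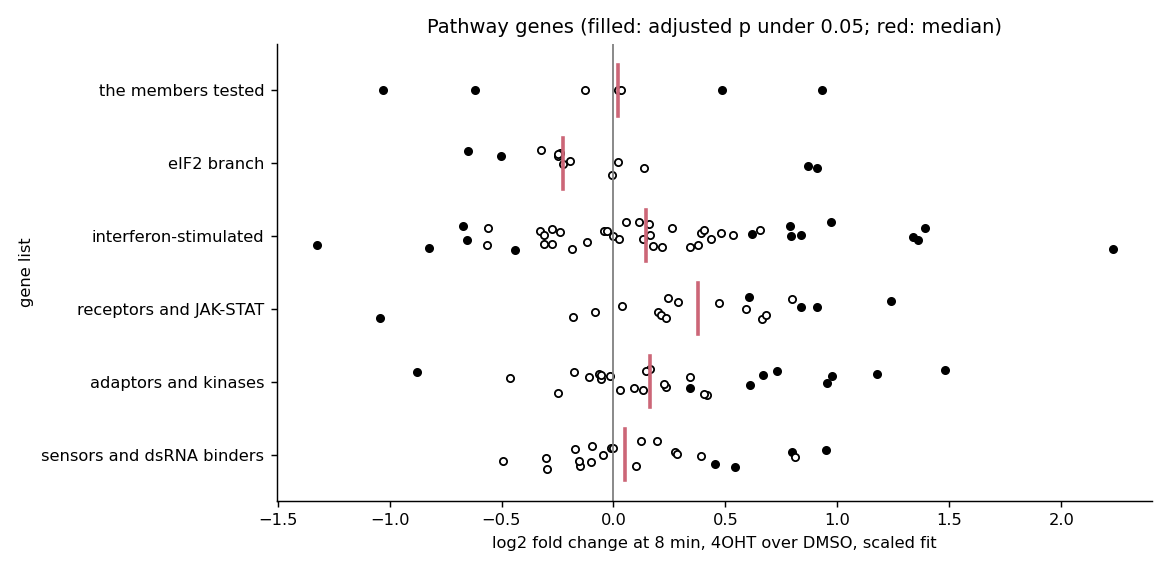
Log2 fold change at 8 min in the scaled fit, 4OHT over DMSO, for each gene tested in 5 pathway lists and for the 7 members, with filled points for adjusted p under 0.05 and a red bar at each median. Filled points lie on both sides of 0 in every list but that of sensors and double-stranded RNA binders, where all 4 lie above 0, and the list medians run from −0.22 to 0.38. The lists of sensors, receptors and interferon-stimulated genes include genes that reached the filter only through the 4OHT 8 min libraries, which favours higher medians there.

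On the deposited scale the same lists counted, as higher, 15 of 22 sensors, 23 of 27 adaptors, 16 of 18 receptor and JAK-STAT genes, 29 of 44 interferon-stimulated genes and 5 of 13 eIF2 genes, beside 58.7% of all genes. Of the genes tested, 3 sensors, 4 receptor genes and 9 interferon-stimulated genes reached the filter only through the 4OHT 8 min libraries. So did 1509 of all 20646 genes, but 0 of the adaptor and eIF2 lists. A rise of such genes was favoured by the filter, so the counts of these 3 lists lean upward. Whether any list differed from all genes was not tested. Only Ifna13, of the ligands, was lower. At 0 min 0 of the 122 passed in either fit, as for all genes.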

How the data were processed

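The authors deposited 1 table of signal values per gene for 8 libraries; the tools named in the submitters' processing notes are STAR 2.7, Bowtie2 and bcl2fastq, with the build mm10, and counter, strand and multiple mapping are not given in the sources used here. Each value was a whole number of reads over 1 divisor per library (100% of entries within 0.01 read of a whole number), and what the divisor stands for is not stated. Columns were assigned to groups by treatment and time in their names, a name without 4OHT being read as DMSO. Entries matching RefSeq symbols, synonyms or Ensembl name forms counted as genes (37736), and genes of at least 10 in at least 2 libraries were tested (20646). limma 3.58.1 in R 4.3.3 (trended, two-sided) was fitted to log2(value + 1) of all 8 libraries, or of 4 after median-ratio scaling over the genes tested. Tried as alternatives were other filters (none, or a minimum of 100), pseudocounts (0.5, 5) and scalings, a block for column number, the omission of single libraries, and count tests on recovered reads (edgeR 4.0.16, DESeq2 1.42.0). The steps were tested on simulated data.

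Members and the 6 lists (sensors, adaptors, receptors and JAK-STAT, interferon-stimulated genes, ligands, eIF2 branch) were chosen with earlier results of these data known. Named were all 9 members and, from each list, up to 3 genes of smallest p in each direction past the threshold in the scaled fit at 8 min, and the gene most correlated with each member.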

Additional observations from a re-analysis of the deposited data

How the results depend on the processing

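In the scaled fit at 8 min the count of 4 members past the threshold ran from 3 to 4 with 1 library left out and stayed at 4 under 7 of the 8 other alternatives. Without a filter it was 0, as for all 36997 genes then tested, with adjusted p from 0.0545 for Adar to 0.117 for Irf1. On the deposited scale at 8 min the count of 5 became 2 without a filter, 3 with a minimum of 100 (5 members tested), 0 with median-ratio scaling of all 8 libraries, 0 with spike-in scaling, and 0 to 5 with 1 library left out. It was 6 with the replicate block, which added Eif2ak2 (adjusted p = 0.0245) and called 17075 of all genes higher. Calls on that scale turned below 0 for Mavs (−0.045), Stat2 (−0.21) and Irf9 (−0.056) with median-ratio scaling of all 8 libraries, and for Stat2 (−0.0012) with spike-in scaling. For 8 against 0 min with DMSO the count of 4 became 1 with median-ratio scaling and 2 with spike-in scaling, ran from 0 to 5 with 1 library left out, and was 6 with the replicate block (11748 genes higher over all). With 4OHT the count of 6 became 2 under each of these scalings, where Irf9 turned to −0.19 with median-ratio scaling, and ran from 5 to 6 with 1 library left out. For the difference of effects the count of 0 became 2 with the replicate block (Irf1, adjusted p = 0.0149, and Adar, 0.0232; 6228 genes higher over all) and ran from 0 to 2 with 1 library left out. The causes were not tested. The block used the number in the column names, which the sources do not tie to a shared culture. Deviations of same-numbered libraries correlated at 0.42 between treatments at 0 min and 0.094 at 8 min, over genes. The block changed none of the calls of members in the scaled fits. At 0 min all 28 alternatives gave 0. Depth limits Isg15 and Ifih1, which had at most 32 and 132 reads in a library.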

Other observations

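The gene whose scaled profile over the 8 libraries was most like that of each tested member was sought among all genes, as a description. For Ddx58 it was the histone gene Hist1h2ab (Pearson r = 0.998), for Stat2 the actin-severing gene Cfl1 (0.983), for Irf1 the ganglioside synthase St3gal5 (0.979), for Adar Gm8764 (0.979), for Eif2ak2 the sterol sensor partner Insig1 (0.978), for Mavs Gm16833 (0.955) and for Irf9 A930012L18Rik (0.949). None of these 7 belonged to the pathway lists. The 8 points are 4 groups of 2 libraries and so are not independent of the design.

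Lgals3bp, a secreted interferon-induced glycoprotein, read 15.8 and 26.7 with 4OHT at 8 min and from 0 to 2.56 in the other 6 libraries. It reached the filter only through the group in which it is high, so no test is given for it, and it was named after its values were seen.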
